A study of Mus musculus with 6 samples.

Results

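The C/EBP family was examined through 4 of its genes, *Cebpa*, *Cebpb*, *Cebpd* and *Cebpg*, chosen by symbol and read from all 6 count tables, 4 of 24421 gene symbols. All 4 had enough counts to be tested, as did 12766 symbols in all. The libraries came from the mouse cell line 3T3-L1, which forms adipocytes in culture and for which the labels give the strain C57BL/6. The study states that strain for its mice and states none for this line, so the label could not be checked. Before infection all cells had the same history. At 2 days past confluence they received 10% CS, insulin (870 nM), TZD (5 µM), Dex (1 µM) and IBMX (500 µM), and on day 3 IBMX and Dex were left out. On day 7 the AdLacZ group received a LacZ control Adenovirus and the Ad*Lmo3* group an Adenovirus carrying *Lmo3*, both at 100 pfu/cell, and RNA was taken 72 h later. Each group held 3 libraries, from 3 separate infections of 1 cell line, so that the spread between libraries is a spread between infections. No uninfected cells are compared here.

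C/EBP proteins are transcription factors with a basic leucine zipper (bZIP), a domain through which they pair with one another or with other bZIP proteins and bind DNA. In the classical order of 3T3-L1 differentiation, IBMX and glucocorticoid first raise C/EBPβ and C/EBPδ, which then switch on C/EBPα and PPARγ, and the latter pair maintain each other and the adipocyte genes. C/EBPγ has no activation domain of its own and works through its partners, ATF4 among them. The *Cebpa* and *Cebpb* mRNAs each give a long and a short protein with different activity, a distinction that counts per gene cannot show.

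The labelled cell type was checked first. The 8 adipocyte markers summed to 21967 to 25125 CPM (read counts relative to the library total, scaled between libraries by TMM, the trimmed mean of M-values) in AdLacZ libraries and to 29771 to 36357 in Ad*Lmo3* libraries, and none was near 0. The 9 preadipocyte markers summed to 1959.5 to 2944.7 and to 1954.1 to 3048.5 CPM, led by *Dlk1* (1159 and 1163 CPM on average) and *Postn* (982 and 937 CPM), with *Cd34* at 0.154 to 0.562 CPM and *Gata2* at 0.590 to 1.75 CPM. Both kinds of marker were thus present in every library, and in bulk RNA a different number of cells of a type cannot be told apart from a different amount of RNA per cell. *Lmo3* had no counts in any library. The study's construct was codon-optimized, so the group labels cannot be checked by this gene. The libraries held 28035639 to 38332335 counts on genes, at which 3 counts, taken as the smallest detectable number, correspond to 0.0768 to 0.111 CPM.

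The 4 genes lie at 3 places in the genome (GRCm38, GENCODE annotation). *Cebpa* (chr7:35119293-35121928, plus strand) and *Cebpg* (chr7:35046422-35056573, minus strand) are neighbours whose starts face each other across 62.7 kb, so that they are transcribed in opposite directions. *Cebpb* (chr2:167688915-167690418, plus strand) consists of a single exon. *Cebpd* is at chr16:15887286-15891031 on the plus strand. Promoter sequences are shown for 3 members because the genes that follow one another in differentiation, and the neighbours *Cebpa* and *Cebpg*, carry different elements next to their starts. Each is the 250 bases before the gene start in RefSeq (GRCm38.p6), written 5′ to 3′ on the strand of the gene, and the RefSeq table used held no entry for *Cebpd*. Capitals mark TATAAA in *Cebpa*, at chr7:35119043-35119292, the cAMP response element core TGACG or its reverse CGTCA in *Cebpb*, at chr2:167688665-167688914, and CCAAT, read here on the opposite strand as ATTGG, in *Cebpg*, at chr7:35056567-35056816.
Cebpa: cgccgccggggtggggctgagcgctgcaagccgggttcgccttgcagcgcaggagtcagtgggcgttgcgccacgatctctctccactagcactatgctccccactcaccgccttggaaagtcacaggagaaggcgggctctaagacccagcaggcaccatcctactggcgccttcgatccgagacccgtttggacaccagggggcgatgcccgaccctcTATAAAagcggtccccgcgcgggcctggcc
Cebpb: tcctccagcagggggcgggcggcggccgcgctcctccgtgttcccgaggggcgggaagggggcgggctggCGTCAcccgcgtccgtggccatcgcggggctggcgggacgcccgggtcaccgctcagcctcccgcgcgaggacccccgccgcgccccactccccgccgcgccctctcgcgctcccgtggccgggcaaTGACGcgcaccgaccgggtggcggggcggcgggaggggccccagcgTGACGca
Cebpg: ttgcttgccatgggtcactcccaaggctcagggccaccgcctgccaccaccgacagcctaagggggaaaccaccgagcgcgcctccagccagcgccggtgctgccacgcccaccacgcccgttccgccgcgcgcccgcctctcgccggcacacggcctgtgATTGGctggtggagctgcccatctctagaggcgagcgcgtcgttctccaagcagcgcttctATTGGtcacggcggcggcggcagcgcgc

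The *Cebpa* window held TATAAA once, 30 to 25 bases before the start, an element found in 12.4% of 32851 mouse promoter windows of the same length. The *Cebpb* window held TGACG 3 times, at 180 to 176 bases before the start on the opposite strand and at 53 to 49 and 7 to 3 bases before it on the strand of the gene, and 17.8% of promoter windows held at least 1 such core. The *Cebpg* window held CCAAT on the opposite strand at 89 to 85 and at 28 to 24 bases before the start (33.8% of windows held it). Both strands were searched, and none of these matches overlapped another. The C/EBP site TTGCNNAA, the C/EBP-ATF composite site TGATGNAA, the E-box CACGTG and the STAT site TTCNNNGAA had no match in the 3 windows, which says only that these letters were absent there. In all windows they were found in 9.56%, 3.45%, 6.02% and 7.02%. GC content was 66.4% in *Cebpa*, 81.6% in *Cebpb* and 70.8% in *Cebpg*, above the median of 52.4% over all windows. No chromatin or binding data were analysed here, so these sequences are a description of the loci.

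*Cebpa*, which encodes the factor that maintains the differentiated adipocyte, was higher in all 3 Ad*Lmo3* libraries than in any AdLacZ library. Its counts were 8247, 8075 and 7799 in AdLacZ libraries 1, 2 and 3 and 11397, 13264 and 9105 in Ad*Lmo3* libraries 1, 2 and 3. After scaling these were 232, 207 and 230.0 CPM against 308, 360.2 and 337 CPM, so that the lowest Ad*Lmo3* library exceeded the highest AdLacZ library. The log2 fold change was 0.59 (95% CI 0.40 to 0.78, adjusted p = 0.0111). *Cebpa* was the 1 member of 4 that passed the adjusted threshold of 0.05, which 4.28% of all tested genes passed in either direction and 2.71% as higher, and the 1 member whose groups did not overlap, which held for 26.5% of all tested genes in either direction and 13.3% as higher. Leaving out AdLacZ library 3 ended the call, with a log2 fold change of 0.61 and an adjusted p of 0.0601, and the other libraries could each be left out without losing it. Without that library 77 genes passed in all, against 547 with all 6 libraries.

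*Cebpb*, the early factor that cAMP signals induce, was at 132, 167 and 128 CPM in AdLacZ libraries (4706, 6520 and 4331 counts) and at 176, 169 and 150.5 CPM in Ad*Lmo3* libraries (6502, 6234 and 4064 counts). AdLacZ library 2 stood above AdLacZ libraries 1 and 3 and above Ad*Lmo3* library 3, so that the groups overlapped. The means were 142 ± 21.4 and 165 ± 13.1 CPM (AdLacZ first, SD, n = 3 each). On the log2 scale the difference was 0.21 (95% CI -0.05 to 0.47), which did not pass the threshold (adjusted p = 0.335). Without AdLacZ library 2 it was 0.35 and still did not pass (adjusted p = 0.0946).

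*Cebpd*, the other early factor, induced by glucocorticoid in these cells, was the member with the lowest counts. It was at 12.5, 18.3 and 14.1 CPM in AdLacZ libraries (446, 715 and 479 counts) and at 15.9, 16.02 and 14.5 CPM in Ad*Lmo3* libraries (589, 590 and 392 counts). AdLacZ library 2 was again the highest in its group, and all 3 Ad*Lmo3* values lay between the lowest and the highest AdLacZ value. The log2 fold change was 0.05 (95% CI -0.28 to 0.37, adjusted p = 0.898). Its sign turned with the scaling: it was -0.03 with library totals alone, which also moved the median of all genes from 0.00138 to -0.0719.

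*Cebpg*, the member without an activation domain, had more counts than *Cebpa* in AdLacZ libraries, before any division by length. It was at 278, 259.9 and 295 CPM in AdLacZ libraries (9888, 10155 and 10011 counts) and at 251, 297 and 327 CPM in Ad*Lmo3* libraries (9291, 10926 and 8826 counts). The lowest and the highest of the 6 values were both Ad*Lmo3* libraries, so that the AdLacZ group lay inside the range of the other. The log2 fold change was 0.07 (95% CI -0.17 to 0.31, adjusted p = 0.762), and it was -0.01 with library totals alone. The intervals of *Cebpb*, *Cebpd* and *Cebpg* bound what these 6 libraries could show: upper limits of 0.47, 0.37 and 0.31 on the log2 scale for a rise, and lower limits of -0.05, -0.28 and -0.17 for a fall.

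**Figure D1:**
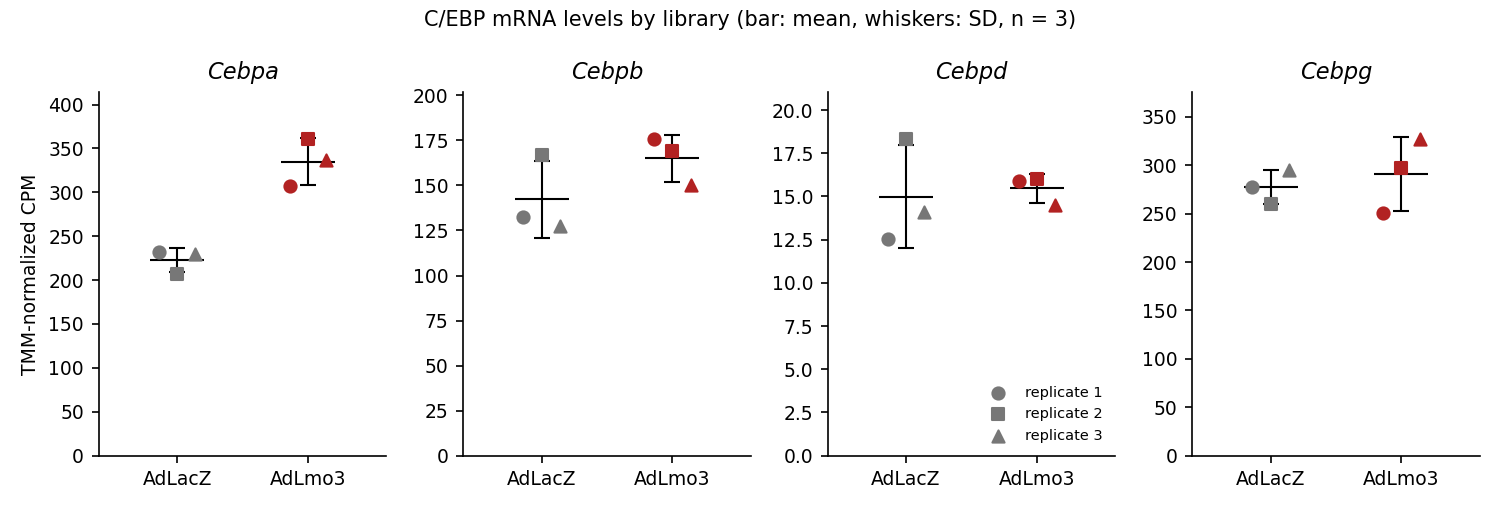
TMM-normalized CPM of each C/EBP gene in the 3 AdLacZ and 3 AdLmo3 libraries, with the vertical axis from 0 in each panel. Points are libraries, the long bar is the mean and the whiskers are the SD (n = 3); the groups are apart for Cebpa and overlap for Cebpb, Cebpd and Cebpg.

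**Figure D2:**
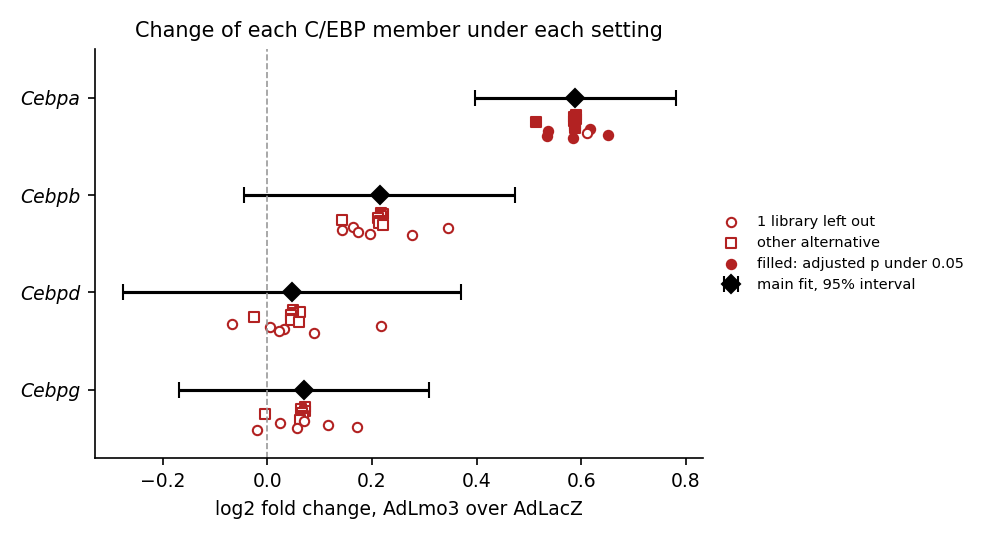
Log2 fold change of each C/EBP gene, AdLmo3 over AdLacZ, with its 95% interval (diamond) and its value under 14 other settings (circles: 1 library left out; squares: other tools, scalings and filters). Filled symbols have an adjusted p under 0.05; for Cebpa every value is above 0.5 and 1 is open, while Cebpd and Cebpg have values on both sides of 0.

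Levels were next compared between the genes per length, as CPM per kb of exon, since a longer mRNA gives more reads. On this scale *Cebpa* was at 84.5 ± 5.31 in AdLacZ and 127 ± 10.0 in Ad*Lmo3* (SD, n = 3 each). *Cebpb* was at 94.6 ± 14.2 and 109.8 ± 8.68, *Cebpg* at 49.4 ± 3.14 and 51.9 ± 6.80, and *Cebpd* at 4.001 ± 0.795 and 4.13 ± 0.224. *Cebpd* was last in all 6 libraries and *Cebpg* next above it. *Cebpb* and *Cebpa* were close to each other in the control cells: *Cebpb* was the higher in AdLacZ libraries 1 (87.94 against 87.93) and 2 (111 against 78.4), and *Cebpa* in AdLacZ library 3 (87.3 against 84.9). In Ad*Lmo3* library 1 both genes were at 117 CPM per kb, and *Cebpa* was the higher in libraries 2 (137 against 113) and 3 (128 against 100.0). The order of these neighbours in AdLacZ was therefore not separated from their spread.

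The 4 genes together summed to 229, 241 and 229 CPM per kb in the AdLacZ libraries and to 282, 306 and 289.9 in the Ad*Lmo3* libraries. *Cebpa* made up 38.5%, 32.6% and 38.2% of this sum in AdLacZ and 41.4%, 44.6% and 44.1% in Ad*Lmo3*. All 3 Ad*Lmo3* shares exceeded all 3 AdLacZ shares, with means of 36.4% ± 3.31 and 43.4% ± 1.76 (SD, n = 3 each) and a difference of 6.94 percentage points (two-sided exact permutation p = 0.1, the smallest that 3 against 3 libraries allow). The mean share of *Cebpg* was 21.3% ± 1.90 and 17.7% ± 2.16, that of *Cebpb* 40.6% ± 4.85 and 37.5% ± 3.49, and that of *Cebpd* 1.72% ± 0.289 and 1.41% ± 0.0848. These are parts of 1 whole, so a higher share of 1 gene lowers the others.

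The length chosen set the order of the genes, though not the direction of the *Cebpa* share. *Cebpg* has long untranslated parts (5621 bp of exon, of which 450 bp code), and per coding length it led with 61.5% in AdLacZ and 55.5% in Ad*Lmo3*, while *Cebpa* went from 20.6% to 26.7%. *Cebpd* is annotated with 3746 bp of exon in GENCODE and spans 2260 bp in RefSeq. RefSeq lengths were used for *Cebpa*, *Cebpb* and *Cebpd*, with the longest GENCODE transcript for *Cebpg* (4709 bp). With these lengths the *Cebpd* share was 2.71% and 2.25% and that of *Cebpa* 34.7% and 41.7%. The transcripts in use in these cells were not measured.

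**Figure D3:**
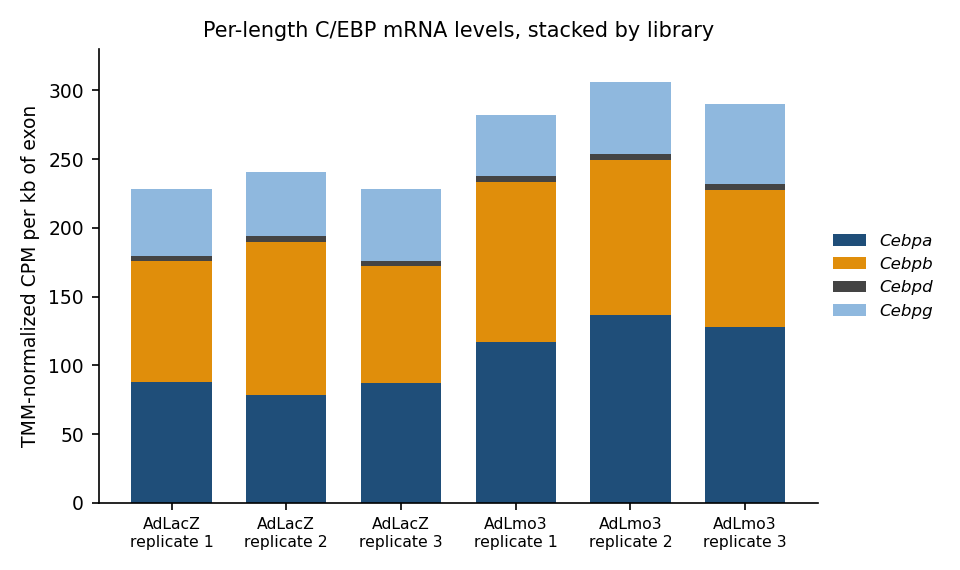
CPM per kb of exon (TMM-normalized) of Cebpa, Cebpb, Cebpd and Cebpg stacked for each of the 6 libraries, with the vertical axis from 0. The sums are 229 to 241 in AdLacZ and 282 to 306 in AdLmo3, and the dark blue part, Cebpa, is larger in every AdLmo3 library.

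Ratios between members within a library do not depend on how the libraries are scaled, nor, for a difference between groups, on gene length. The log2 ratio of *Cebpa* to *Cebpg* counts was -0.26, -0.33 and -0.36 in AdLacZ libraries and 0.29, 0.28 and 0.04 in Ad*Lmo3* libraries. *Cebpg* thus had more counts, not divided by length, than *Cebpa* in every AdLacZ library and fewer in every Ad*Lmo3* library, although the genes are neighbours on chromosome 7. The mean difference was 0.52 (two-sided exact permutation p = 0.1, adjusted p = 0.3 over the 6 pairs of members). The log2 ratio of *Cebpa* to *Cebpd* was 4.21, 3.50 and 4.03 in AdLacZ and 4.27, 4.49 and 4.54 in Ad*Lmo3*, again without overlap and with a difference of 0.52 (exact p = 0.1, adjusted p = 0.3). The difference was 0.32 without AdLacZ library 2, over 1.5 times smaller. For *Cebpa* to *Cebpb* the ratio overlapped between groups, with 0.81, 0.31 and 0.85 in AdLacZ and 0.81, 1.09 and 1.16 in Ad*Lmo3* (difference 0.37, exact p = 0.2, adjusted p = 0.3). Without AdLacZ library 2 that difference was 0.19. With 3 libraries a group no pair could reach an adjusted p of 0.05, so unequal changes of the members were not shown by this test.

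The early factors *Cebpb* and *Cebpd* had the most similar profiles of the 6 pairs across libraries. *Cebpb* deviated from its group mean by -0.10, 0.24 and -0.15 in AdLacZ libraries 1, 2 and 3 and by 0.09, 0.04 and -0.13 in Ad*Lmo3* libraries, on the log2 scale. *Cebpd* deviated by -0.24, 0.31 and -0.07 and by 0.04, 0.05 and -0.09, with the same sign in all 6 libraries. Over the 6 libraries the centred log2 profiles of *Cebpb* and *Cebpd* differed by a root mean square of 0.11, against 0.25 to 0.35 for the other 5 pairs, and their log2 ratio differed between groups by 0.16 (exact p = 0.2, adjusted p = 0.3). *Cebpg* had a different order, with its highest values in library 3 of each group. This is a description over 6 libraries that share their processing. The within-group SD on the log2 scale was 0.10 for *Cebpa*, 0.17 for *Cebpb*, 0.20 for *Cebpd* and 0.15 for *Cebpg*, against medians of 0.09, 0.09, 0.12 and 0.09 for genes of like level.

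**Figure D4:**
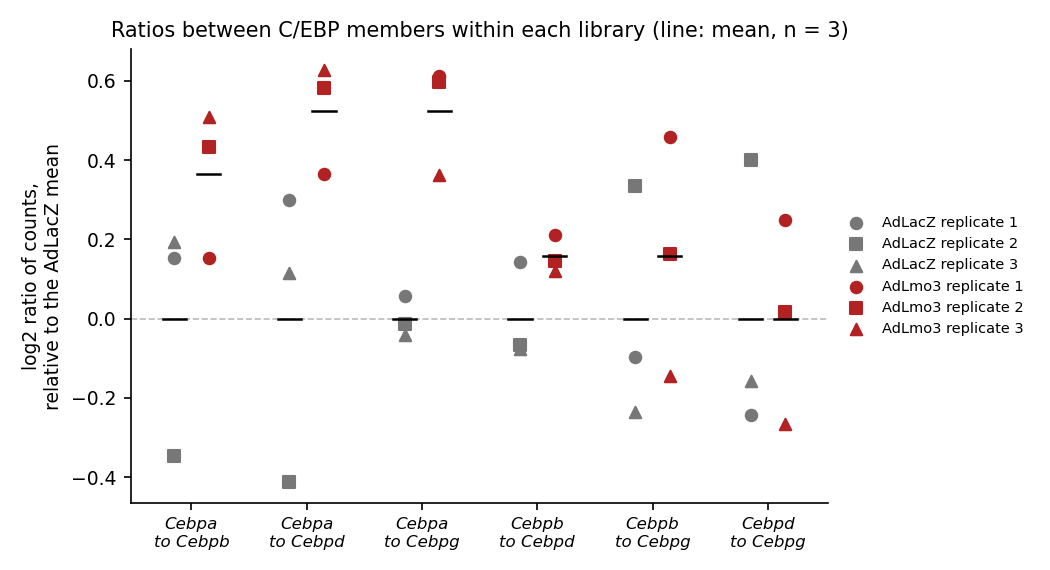
Log2 ratio of counts for each of the 6 pairs of C/EBP genes in each library, drawn relative to the AdLacZ mean of that pair (0); grey symbols are AdLacZ and red symbols AdLmo3 libraries, and lines are means (n = 3). The groups are apart for Cebpa to Cebpd and Cebpa to Cebpg, with mean differences of 0.52 each, and overlap for the other pairs.

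Genes on the opposite strand overlap the ends of both early factors. Without a known strand setting, reads there could count for either gene, or be set aside as ambiguous and count for neither. Of the 75 bp stretches of *Cebpb* exon, 16.7% were shared with *Tmem189*, and of those of *Cebpd* 13.1% were shared with *Spidr*, a DNA repair gene. *Tmem189* ranged over 58.6 to 66.3 CPM (AdLacZ) and 61.7 to 68.7 CPM (Ad*Lmo3*), and *Spidr* at 22.8 to 36.9 and 28.1 to 34.3 CPM. How far this touched the values of *Cebpb* and *Cebpd* was not tested. *Cebpa* and *Cebpg* had no such shared stretch of 75 bp. Other annotated genes did share 51 exonic bases with *Cebpa* and 77 with *Cebpg*, 1.93% and 1.37% of their exons. The study's Q-PCR primers for *Cebpa* are shown because they place its other readout on the same exon: the forward primer begins in the coding part, at chr7:35120406-35120425, and the reverse primer lies past the coding end at 35120495, at chr7:35120540-35120559, for a product of 154 bp. Each matched *Cebpa* alone among the 4 members.
Forward primer: gaacagctgagccgtgaact
Reverse primer: aaaccatcctctgggtctcc

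Among relatives of the 4 genes, *Ddit3* fell. It encodes CHOP, a stress-induced C/EBP protein that pairs with other members and keeps them from their usual sites. It was at 226, 297 and 265 CPM in AdLacZ libraries and at 179.7, 156 and 105 CPM in Ad*Lmo3* libraries, without overlap, as 13.2% of all tested genes were lower without overlap. The log2 fold change was -0.84 (SE 0.187, adjusted p = 0.0471), and the call was kept in 9 of 14 other settings. It was lost with the replicate number as a block (adjusted p = 0.0532), without AdLacZ library 1 (0.0629), 2 (0.117) or 3 (0.166) and without Ad*Lmo3* library 2 (0.144). *Cebpa* and *Ddit3* thus had opposite signs, and the log2 ratio of *Cebpa* to *Ddit3* was higher by 1.45 on average in Ad*Lmo3*, with all 3 libraries above all 3 AdLacZ libraries. That ratio was chosen after its parts had been seen and was not tested. *Cebpz*, which shares the name but is not a bZIP protein, was at 96.7 ± 4.73 and 90.4 ± 5.93 CPM (SD, n = 3 each, log2 fold change -0.10, adjusted p = 0.508), and *Cebpe*, a myeloid member, had no counts in any library.

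Of 16 bZIP proteins outside the family that can pair with C/EBPs or share their sites, 14 could be tested and none passed the threshold with edgeR, with a median log2 fold change of -0.02 beside 0.00138 for all tested genes. At an unadjusted p under 0.05 there were 7 of them, 3 higher and 4 lower, beside 2635 of all 12766 tested genes. DESeq2 called *Atf4* and *Atf5*, limma voom none. *Atf4*, the stress-response partner of C/EBPγ, was at 389 ± 39.8 and 306 ± 41.5 CPM (SD, n = 3 each), without overlap (log2 fold change -0.34, adjusted p = 0.140). *Atf5*, its close relative, was at 435 ± 17.0 and 335 ± 48.4 CPM, also without overlap (-0.38, adjusted p = 0.0981).

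Regulators that act on C/EBP proteins were tested for 16 of 18 listed symbols, and 1 passed, a share of 6.25% that is near the 4.28% of all tested genes. *Trib3*, a pseudokinase that restrains adipocyte differentiation and is itself induced by ATF4 and CHOP, was at 299, 319 and 344 CPM in AdLacZ and at 175, 198 and 137 CPM in Ad*Lmo3*. It fell by 0.91 on the log2 scale (adjusted p = 0.0111), and without AdLacZ library 3 the adjusted p was 0.0671. Its relatives *Trib1* and *Trib2*, also listed, went the other way and did not pass. *Trib1* was at 13.1 and 19.4 CPM on average (0.56, adjusted p = 0.121) and *Trib2* at 6.86 and 9.48 CPM (0.46, adjusted p = 0.0671), AdLacZ first. *Gsk3b*, a kinase that phosphorylates C/EBPα and C/EBPβ, and *Rps6ka3*, a kinase of C/EBPβ, had log2 fold changes of -0.05 and -0.11 (adjusted p = 0.838 and 0.583). The median of this list was -0.04 (6 positive, 10 negative). Of 15 regulators upstream of the C/EBP genes, 1 passed (6.67%, likewise near 4.28%), with a median of 0.06 for the list. *Usf1*, an E-box factor, was lower in all 3 Ad*Lmo3* libraries (76.3 ± 3.30 against 63.3 ± 0.329 CPM, log2 fold change -0.27, adjusted p = 0.0429). It passed in 6 of 14 other settings and in none that left out a library, where the adjusted p was between 0.0655 and 0.148. *Nr3c1*, the glucocorticoid receptor, was at 262 ± 22.4 and 309.5 ± 8.13 CPM (0.24, adjusted p = 0.131), and *Stat3* had a log2 fold change of 0.12 (adjusted p = 0.525).

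Genes known as targets were grouped by the member they are best known for, although members share sites and most targets answer to several factors. The target lists were chosen with earlier results of these data known, so their shares are a description and not independent support. All 12 adipocyte genes ascribed to C/EBPα had a positive log2 fold change, 8 passed as higher against 2.71% of all tested genes, and the median was 0.76. *Retn* (resistin) changed by 1.44, *Pck1* (cytosolic PEPCK) by 1.19, *Scd1* (stearoyl-CoA desaturase) by 1.09 and *Adipoq* (adiponectin) by 1.05. *Agpat2*, an enzyme of triglyceride synthesis, changed by 0.83, *Cidec*, a lipid droplet protein, by 0.69, *Fabp4*, a fatty acid carrier, by 0.62 and *Pparg* by 0.48, each with an SE of 0.07 to 0.13. *Slc2a4*, which encodes GLUT4 and is a textbook C/EBPα target, was at 335 to 386 and 361 to 424 CPM with overlapping groups (0.08, adjusted p = 0.675), and *Insr*, the insulin receptor, had 0.28 (adjusted p = 0.168). Without AdLacZ library 3, 5 of the 12 passed. The rise of *Cebpa* therefore stood beside rises in most, but not all, of these genes, and beside the higher sum of adipocyte markers given above, of which 6 of 8 passed. Adipocyte markers and C/EBPα targets share *Adipoq*, *Fabp4* and *Cidec*. Of the markers outside that overlap, *Cfd* changed by 0.81, *Lipe* by 0.59 and *Plin1* by 0.56, while *Lpl* and *Cd36* had 0.23 and 0.10 (adjusted p = 0.294 and 0.794). Without AdLacZ library 3, 1 marker passed. None of the 9 preadipocyte markers passed with edgeR, DESeq2 or limma voom, and 0 had an unadjusted p under 0.05. What part the marker level has in the value of *Cebpa* was not tested.

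Of 12 acute phase and inflammatory genes ascribed to C/EBPβ and C/EBPδ, 3 passed as higher, against 2.71% of all tested genes, and the median was 0.56 (9 positive, 3 negative). These were *Hp*, haptoglobin (1.13, adjusted p = 0.00356), *Orm1*, an acid glycoprotein (0.92, adjusted p = 0.0235), and *C3*, a complement component (0.76, adjusted p = 0.0115). *Mt1* and *Mt2*, the metallothioneins, which glucocorticoid and zinc induce, had log2 fold changes of -0.23 and -0.64 with wide spread (adjusted p = 0.737 and 0.414), and their highest values were in AdLacZ library 2. Without AdLacZ library 3, 1 of the 12 passed, *Hp*.

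Of 9 genes of the amino acid response that C/EBPγ and ATF4 control together, 3 passed as lower, against 1.57% of all tested genes. The median was -0.36 (2 positive, 7 negative). The positive ones, neither of which passed, were *Slc7a11* (0.64, adjusted p = 0.291) and *Phgdh* (0.06, adjusted p = 0.755). *Slc7a11* was highest in Ad*Lmo3* library 3, at 38.4 CPM against 17.2 and 17.1 CPM in Ad*Lmo3* libraries 1 and 2. *Nupr1*, a stress protein, was at 168 ± 13.4 and 96.1 ± 7.44 CPM (-0.80, adjusted p = 0.00352) and kept its call in all 14 other settings. *Chac1*, a glutathione-degrading enzyme, and *Slc3a2*, the heavy chain of amino acid transporters, changed by -0.56 and -0.51 (adjusted p = 0.0308 and 0.0331). Each of these latter calls was lost in 5 settings, all of which left out a library. *Psat1*, of serine synthesis, had -0.21 (adjusted p = 0.111), and *Asns*, asparagine synthetase, -0.05 (adjusted p = 0.772). These falls stood beside a *Cebpg* level that did not pass the threshold and a lower mean of *Atf4* that did not pass either.

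**Figure D5:**
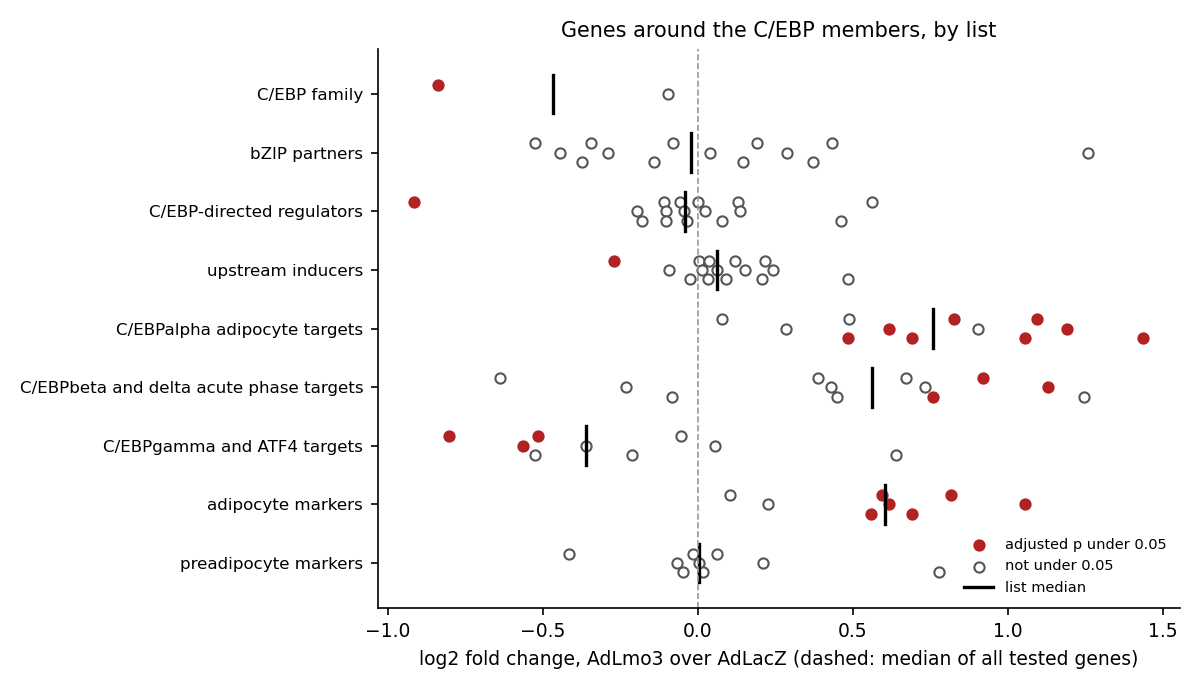
Log2 fold change, AdLmo3 over AdLacZ, of each tested gene in the 9 lists around the C/EBP genes (open and filled points, filled where the adjusted p is under 0.05), with the list median (black line) and the median of all tested genes (dashed line, 0.00138). The C/EBPalpha targets have a median of 0.76 and the C/EBPgamma and ATF4 targets one of -0.36; the C/EBP family list here holds Ddit3 and Cebpz.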

How the data were processed

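RNA-Seq libraries were made with the NEBNext Ultra II kit and sequenced as 75 bp single reads. Per the submitters' processing notes the authors mapped them with STAR 2.5.0b to mm10. The authors deposited counts of reads per gene symbol, without normalization. The counting program, annotation and strand setting are not given in the sources used here. Reads of no gene (7.15% to 8.94%) and ambiguous reads (0.476% to 0.543%) were left out. The low counting error at this depth does not cover the spread between infections, and floors cover counting error only.

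Genes were tested in edgeR 4.0.16 under R 4.3.3 by its quasi-likelihood test with the group as the only term, after filterByExpr and TMM scaling. P-values were adjusted by the Benjamini-Hochberg method over 12766 genes, and the threshold was 0.05. Fold changes are Ad*Lmo3* over AdLacZ. Log2 profiles used a prior count of 2. The script was tested on simulated data. Ratios and shares were compared by exact permutation tests (scipy 1.17.1). Lengths and positions came from GRCm38 and GENCODE, and promoters from RefSeq.

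The members and the 9 gene lists were chosen with earlier results of these data known, the lists from background knowledge of the genes. Named were the 4 members, from each list the genes that passed and the 2 of highest mean CPM that did not, the family list whole, the 3 genes most like each member in profile (mean of at least 10 CPM), and the nearest protein-coding genes. *Tmem189* and *Spidr* were added for their overlap. The other preadipocyte markers, *Trib1*, *Trib2*, *Slc7a11* and *Phgdh* were added after their values were seen. Alternatives were DESeq2 1.42.0, limma voom (limma 3.58.1), RLE, upper quartile and no scaling factors, 2 other filters, the replicate block, other lengths, and leaving out each library. RefSeq lengths, for *Cebpa*, *Cebpb* and *Cebpd*, were added after seeing the data.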

Additional observations from a re-analysis of the deposited data

How the results depend on the processing

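*Cebpa* kept its direction under all 14 alternatives and its call under 13. With 1 library left out, its log2 fold change was 0.53 to 0.65, that of *Cebpb* 0.14 to 0.35, of *Cebpd* -0.0674 to 0.22 and of *Cebpg* -0.0199 to 0.17, and 0 to 1 of the 4 members were called. With library totals only, *Cebpd* was at -0.0251 and *Cebpg* at -0.0052. The log2 ratio of *Cebpd* to *Cebpg*, near 0, ranged from -0.12 to 0.20 with 1 library left out. The *Cebpa* share differed by 5.03 to 7.96 percentage points under all 11 alternatives.

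Of all genes, 547 were called, 1096 with DESeq2, 767 with library totals only (34.7% of them higher, against 63.3%) and 77 to 501 with 1 library left out, the lowest without AdLacZ library 3. DESeq2 called 2 bZIP partners, 3 regulators and 5 C/EBPγ and ATF4 targets. Library totals only gave 2 regulators and 5 such targets, and without a filter 0 upstream regulators were called. Leaving out 1 library gave 0 to 1 of the family list, 0 to 1 regulator, 0 upstream regulators, 5 to 9 C/EBPα targets, 1 to 3 acute phase genes, 1 to 3 C/EBPγ and ATF4 targets and 1 to 6 adipocyte markers. The cause was not tested, apart from the fewer libraries.

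The deviations of same-numbered libraries correlated by 0.0345, 0.176 and 0.176, and those of differently numbered libraries by -0.265 to 0.149. AdLacZ library 1 correlated more with Ad*Lmo3* library 3 (0.111) than with library 1. These values do not settle whether the labels' numbers mark pairs, and the main fit did not pair libraries by number. In a fit with that number as a replicate block 498 genes passed, *Cebpa* had a log2 fold change of 0.59 (adjusted p = 0.0255), and 0 genes of the family list and 0 upstream regulators were called.

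*Dlk1*, near 0, had log2 fold changes of -0.0080 with limma voom, -0.0673 with library totals only, -0.0024 with the block and -0.16 to 0.19 with 1 library left out. Signs also turned with 1 library left out for *Gsk3b* (-0.13 to 0.0432), *Mt1* (-0.51 to 0.13), *Asns* (-0.0976 to 0.0153), *Cd36* (-0.0634 to 0.22) and *Postn* (-0.37 to 0.14). None of these passed a threshold in any alternative. Infections of 1 cell line, 3 a group, limit what the members' intervals can show, and protein isoforms and binding were not measured in these counts.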

Other observations

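The genes whose log2 profile over the 6 libraries was most like that of *Cebpa*, among 9148 genes of at least 10 CPM, were *Slc5a6*, a vitamin transporter (root mean square difference 0.0528), *Serpina3c*, a protease inhibitor (0.0542), and *Acsl1*, which activates fatty acids for storage and oxidation (0.0575). Their mean levels went from 49.9 to 75.7 CPM, from 18.3 to 29.1 CPM and from 2604 to 3863 CPM. For *Cebpb* the nearest profiles were those of *Bcar1* (0.0468), *Top1mt* (0.0471) and *Acp6* (0.0473). For *Cebpd* they were *Cacna1g* (0.0396), the histone demethylase *Kdm6b* (0.0553) and *Igf1r*, a growth factor receptor (0.0563), and for *Cebpg* they were *Txlng* (0.0146), *Mterf4* (0.0186) and *Athl1* (0.0296). These are the closest of many genes over 6 libraries and carry no test.

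Around the members, the nearest protein-coding genes did not pass the threshold where they were tested. *Pepd*, 1.713 kb from the end of *Cebpg*, had means of 33.05 ± 1.14 and 34.4 ± 1.51 CPM (AdLacZ first, SD, n = 3 each). *Slc7a10*, 64.456 kb beyond *Cebpa*, had too few counts to be tested. *Ptpn1* near *Cebpb* was at 54.4 ± 4.26 and 55.3 ± 2.75 CPM. *Mzt2* and *Pkp2* near *Cebpd* were at 19.0 ± 0.350 and 19.0 ± 1.47 CPM and at 26.4 ± 0.814 and 23.4 ± 4.30 CPM. *Gm20431*, the other neighbour of *Cebpb*, had no row in the tables.

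Of the 9 preadipocyte markers, 6 had their lowest level in library 3 of both groups (*Dlk1*, *Postn*, *Zfp521*, *Pdgfra*, *Gata2* and *Thy1*). Within the Ad*Lmo3* group, *Ly6a*, *Gata3* and *Cd34* were instead highest in library 3. *Cd34*, at 0.444 CPM there, was higher in AdLacZ libraries 1 and 3 (0.562 and 0.472 CPM). *Dlk1* was at 1342, 1261 and 873 CPM in the AdLacZ libraries and at 1422, 1217 and 849.7 CPM in the Ad*Lmo3* libraries, and *Ly6a* at 90.6, 56.3 and 84.8 CPM and at 44.7, 108 and 245 CPM. *Cebpg* was highest in that library in both groups (295 and 327 CPM), and *Cebpb* lowest in both (128 and 150.5 CPM). Whether the make-up of these cultures bears on the members' spread was not tested.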
